A study of Rattus norvegicus with 4 samples.

Results

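The voltage-gated and chloride ion channels of soleus muscle were taken as all probe sets whose annotated gene symbol starts with Kcn (potassium channels), Scn (sodium channels), Cacn (calcium channels) or Clcn (chloride channels and exchangers). There were 134 such probe sets, each annotated to 1 symbol, among the 8740 non-control probe sets of the array. They stand for 86 of the 4736 genes named by such a symbol. Of them, 45 probe sets for 37 genes had a mean signal over the arrays at or above 21.0, the 40th percentile, and were tested. The other 89 probe sets lay below it and are called dim. The symbol rule also takes in Scnn1a, Scnn1b and Scnn1g, subunits of the epithelial sodium channel, which is not voltage-gated. The Kcn prefix likewise covers potassium channels outside the voltage-gated class, such as inward rectifiers and tandem-pore channels.

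Soleus RNA came from female rats in 2 groups of 2 pools, and each pool held RNA of 4 to 5 animals and was read on 1 Affymetrix array. Control rats were caged normally and moved spontaneously. In the unloaded group, standing on the hindlimbs was prevented during 10 h daily for 11 days, and both groups belong to the 11-day time point. The sources used here give neither strain nor age. A replicate is a pool, so spreads and p-values describe pools and not single animals, and nothing in the labels says how the pools of a group were kept apart beyond their number.

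Ion channels set the excitability of the muscle fibre. A nerve impulse opens acetylcholine receptors, sodium channels carry the action potential along the membrane and into the transverse tubules, and the L-type calcium channel there senses the voltage and opens the ryanodine receptor, which releases the calcium that starts contraction. Potassium channels repolarise the fibre, and the muscle chloride channel steadies the resting membrane, so that the fibre does not fire repeatedly.

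The unloaded soleus differed from control in 1 channel transcript at the threshold used, an adjusted p under 0.05. Cacna2d1, the alpha-2-delta subunit of the L-type calcium channel, was 1.43-fold higher in the unloaded pools. That is 1 of 45 tested channel probe sets, or 2.22%, against 5.25% of all 5257 tested probe sets (2.59% higher and 2.66% lower), so calls among channels were not more frequent than in the table as a whole. The large conductance potassium channel gene Kcnma1 came next, 1.56-fold lower, and did not pass (adjusted p = 0.0531). The median log2 fold change of the tested channels (unloaded minus control) was -0.02, beside 0.00 for all tested probe sets, and the median size of change was 0.17 in both.

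Looser rules gave shares of channels near the background. At an unadjusted p under 0.05 by limma there were 11 of 45 channel probe sets, 4 higher and 7 lower, or 24.4% against 20.8% of all tested probe sets (10.3% higher and 10.5% lower). Both unloaded pools lay on the same side of both control pools for 22 of 45, 11 higher and 11 lower, or 48.9% against a background of 50.8% (25.5% higher and 25.3% lower). Requiring also a difference of at least 1.3-fold left 8 channel probe sets, or 17.8% against 16.2%. No channel probe set was 1.5-fold apart in all 4 pairs of a control with an unloaded array, a rule that 2.99% of all tested probe sets met.

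**Figure D1:**
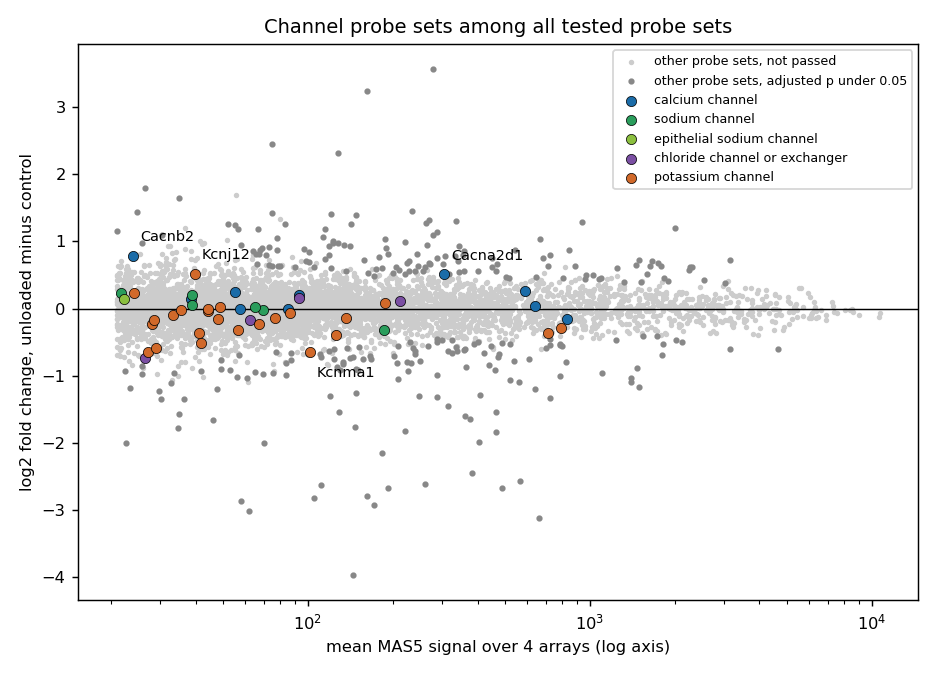
Each point is a tested probe set, placed by its mean signal over the 4 arrays (log axis) and its log2 fold change, unloaded minus control; colours mark the channel families, and other probe sets are dark grey where they passed and light grey where they did not. The 45 channel points run from -0.74 (Clcn7) to 0.78 (Cacnb2), and Cacna2d1 at 0.51 is the one that passed. Clcn7 and Cacnb2 each had a group whose mean signal lay under the filter.

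The sequences upstream of Cacna2d1 and of Cacna1s are shown because both genes encode subunits of one calcium channel while only the former passed. Each run is the 250 bases before a RefSeq transcription start on the rat assembly GRCr8, read on the strand of the gene, for Cacna2d1 chr4:20330148-20330397 (minus strand, the first of 3 starts listed) and for Cacna1s chr13:50045418-50045667 (plus strand). Capitals mark the TATA box letters TATAAA. They also mark CAGCTG, which is a form of the E-box, and the GC box letters, GGGCGG. All were searched on both strands, with overlapping matches counted.
Cacna2d1: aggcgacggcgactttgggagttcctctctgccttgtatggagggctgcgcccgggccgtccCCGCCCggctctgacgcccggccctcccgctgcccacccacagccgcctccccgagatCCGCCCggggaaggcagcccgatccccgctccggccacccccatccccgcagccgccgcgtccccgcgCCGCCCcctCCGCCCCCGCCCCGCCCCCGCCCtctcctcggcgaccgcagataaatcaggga
Cacna1s: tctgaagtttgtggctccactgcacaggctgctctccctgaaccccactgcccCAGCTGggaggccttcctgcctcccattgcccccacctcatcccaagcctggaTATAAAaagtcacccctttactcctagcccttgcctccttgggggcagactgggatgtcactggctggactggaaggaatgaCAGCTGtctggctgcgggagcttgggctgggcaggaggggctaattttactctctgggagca
The Cacna2d1 run held 7 matches to GGGCGG or its complement and none to the other motifs, with 77.2% G or C and 32 CG pairs. The Cacna1s run held 2 matches to CAGCTG and 1 to TATAAA, none to GGGCGG, with 59.2% G or C and 1 CG pair. Of the first-listed starts of all 27457 genes in the table, 32.4% held GGGCGG, 11.9% CAGCTG and 13.1% TATAAA within the same length. For the tested channel genes, 25 of 37 had a listed start, and 13 held GGGCGG, 3 CAGCTG and 4 TATAAA. Of the 49 channel genes with dim probe sets throughout, 40 had one, and 18 held GGGCGG, 9 CAGCTG and 1 TATAAA. These matches describe the letters and were not related to the changes in signal.

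Among calcium channel subunits, the skeletal L-type channel was measured through its pore, alpha-2-delta, beta and gamma subunits. Cacna2d1 (rat gene ID 25399) encodes the extracellular alpha-2-delta subunit, which helps bring the channel to the membrane and binds the drug gabapentin. Its signals were 239.8 and 259.6 in the control pools and 365.9 and 353.5 in the unloaded pools. Both unloaded pools were above both controls, and the gap between the groups was wider than the spread within either. The log2 fold change was 0.51 (SE 0.10, 95% interval 0.27 to 0.75, adjusted p = 0.0320), from 249.7 ± 14.0 to 359.7 ± 8.77 (mean ± SD, n = 2 pools). The call was lost without control pool 1 (adjusted p = 0.148), control pool 2 (0.0967), unloaded pool 1 (0.206) or unloaded pool 2 (0.165), while the change stayed between 0.46 and 0.57. It was also lost without a mean-variance trend (0.0954), with all dim probe sets kept in (0.0743) and with the pool number as a block (0.0689).

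Cacna1s, the pore and voltage sensor of the same channel, was read by a pair of probe sets. The brighter one gave 804.1 and 944 in controls and 748.5 and 821.1 in unloaded pools. These groups overlapped, with a log2 fold change of -0.15 (SE 0.11, 95% interval -0.41 to 0.10, adjusted p = 0.502). The dimmer one gave 636.1 and 620 in controls and 643.7 and 648.4 in unloaded pools, a change of 0.04 (SE 0.09, 95% interval -0.17 to 0.25, adjusted p = 0.858). On the dimmer probe set both unloaded pools lay above both controls. Neither probe set passed, and their values had opposite signs.

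Within each array, the log2 ratio of Cacna2d1 to the brighter Cacna1s probe set was -1.71 and -1.83 in controls and -1.01 and -1.20 in unloaded pools, a difference of 0.66. Against the dimmer Cacna1s probe set it was -1.37 and -1.23 in controls and -0.80 and -0.86 in unloaded pools, a difference of 0.47. The ratio was therefore higher in both unloaded pools with either probe set. This pair was chosen after its values were seen, and a two-sided exact permutation test of 2 against 2 cannot give a p below 0.333, so none is drawn on.

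The cytoplasmic beta-1 subunit gene Cacnb1, which traffics the pore and is needed for coupling in muscle, gave 84.2 and 86.7 in controls and 79.7 and 90.6 in unloaded pools. Its mean was the same in both groups within the spread (log2 fold change -0.01, SE 0.14, 95% interval -0.32 to 0.31). The gamma-1 subunit gene Cacng1, found mainly in skeletal muscle, gave 496.7 and 570.5 in controls and 628.8 and 654.6 in unloaded pools. Both unloaded pools were higher, by 0.27 (SE 0.10, 95% interval 0.02 to 0.51), and the probe set did not pass (adjusted p = 0.203).

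Other calcium channel genes were dimmer than Cacna2d1, Cacna1s and Cacng1. Cacnb2, a beta subunit best known from heart, gave 15.1 and 14.7 in controls and 42.2 and 24.1 in unloaded pools, the largest positive value among the channels (log2 fold change 0.78, SE 0.25, adjusted p = 0.132). Its unloaded pools differed widely from each other, and its other probe set was dim. The L-type pore gene of heart and smooth muscle, Cacna1c, gave 37.5 and 34.5 in controls and 42.8 and 39.1 in unloaded pools (0.15, SE 0.17). Cacna1a, whose P/Q-type channel triggers transmitter release from motor nerve endings, gave 95.1 and 77.1 against 97.7 and 102.9 (0.21, SE 0.15). On the probe sets given, these genes had non-overlapping groups and did not pass. Further Cacna1a probe sets were dim (mean signals 13.4, 9.4 and 6.85) with overlapping groups, and other Cacna1c probe sets were dim too. Cacna1g, a T-type channel gene (0.24, SE 0.19), and Cacna1b, the N-type channel gene of neurons (-0.01, SE 0.16), had overlapping groups.

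Over all 10 tested calcium channel probe sets, 7 lay above 0 and 3 below, with a median log2 fold change of 0.18, and 6 had both unloaded pools above both control pools and none the reverse, where 25.5% of all tested probe sets were above and 25.3% below in this way. The 6 include Cacnb2, which reached the filter only through its unloaded pools. The median of the 10 ranged from 0.07 to 0.18 with any 1 array left out, and was 0.03 over all 26 calcium channel probe sets without the filter. Among fast-fibre markers, 6 of 10 listed genes on the array rose and none fell. By the brightest probe set of each gene, 4.7% of all 3152 genes were called in either direction. The markers not called were Myl1 (0.17), Myh4 (0.15), Myh1 (-0.04) and Pvalb (-0.14). Summed over the 10 markers, the signal was 10552 to 12146 in controls and 16757 to 16859 in unloaded pools. Their part in the calcium channel values was not tested, and in bulk RNA a change in the share of a cell or fibre type and a change in RNA per cell cannot be told apart.

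**Figure D2:**
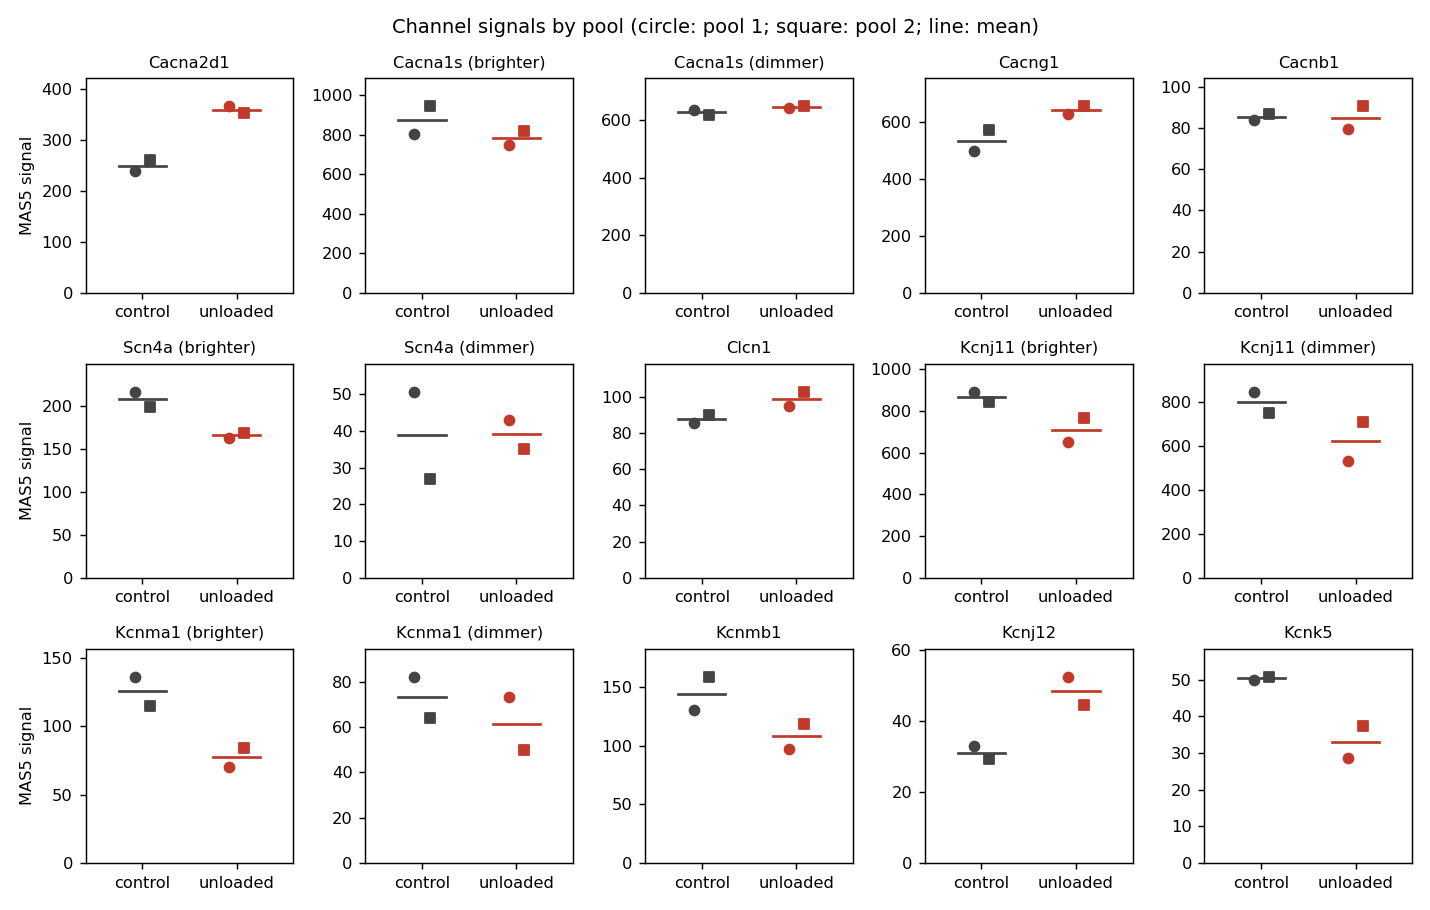
MAS5 signal of 15 channel probe sets in each pool, on axes that start at 0 (circle, pool 1; square, pool 2; line, mean of the group, n = 2). The groups are apart for Cacna2d1, Cacna1s (dimmer), Cacng1, Scn4a (brighter), Clcn1, both Kcnj11 probe sets, Kcnma1 (brighter), Kcnmb1, Kcnj12 and Kcnk5. They overlap for Cacna1s (brighter), Cacnb1, Scn4a (dimmer) and Kcnma1 (dimmer). Among all tested probe sets, 50.8% have groups apart.

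Among sodium channels, Scn4a carries the action potential of skeletal muscle fibres. Its brighter probe set gave 216.9 and 199.3 in controls and 162.8 and 168.7 in unloaded pools. Both unloaded pools were below both controls, and the change did not pass (log2 fold change -0.31, SE 0.11, 95% interval -0.57 to -0.05, adjusted p = 0.174). The dimmer tested probe set gave 50.8 and 27.0 in controls and 43.0 and 35.2 in unloaded pools, and its control pools spanned the unloaded ones (0.05, SE 0.26, adjusted p = 0.950). A dim probe set of Scn4a had a mean signal of 18.8.

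Scn7a encodes the atypical sodium-sensing channel found in glia and several other tissues. Its brighter probe set gave 63.2 and 65.6 in controls and 57.9 and 73.8 in unloaded pools, an overlap (0.02, SE 0.16), and its dimmer one gave 17.6 and 21.2 against 24.3 and 24.2 (0.23, SE 0.20, adjusted p = 0.588). The neuronal channel genes Scn3a (34.8 and 36.5 in controls, 40.7 and 43.8 in unloaded pools) and Scn1a (51.8 and 90.7, against 68.3 and 67.2) gave log2 fold changes of 0.20 (SE 0.17) and -0.02 (SE 0.23). The control pools of Scn1a lay on either side of its unloaded pools. A further Scn3a probe set, from the same sequence record, was dim (mean 4.5) and gave -0.17 without the filter, with overlapping groups. Scnn1g, the gamma subunit of the epithelial channel, gave 19.2 and 22.5 in controls and 22.1 and 25.7 in unloaded pools (0.14, SE 0.20). None of the 7 tested sodium channel probe sets passed.

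Chloride channel genes included Clcn1, which carries most of the resting conductance of the muscle membrane. Its signals were 85.7 and 89.7 in controls and 95.1 and 102.9 in unloaded pools. Both unloaded pools were higher, by less than the test could separate from the spread (log2 fold change 0.16, SE 0.13, 95% interval -0.14 to 0.46, adjusted p = 0.560). The upper end of that interval is 1.38-fold higher. Clcn3, Clcn4 and Clcn7 encode chloride-proton exchangers of endosomes and lysosomes.

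Clcn7, the lysosomal member, gave 39.7 and 30.6 in controls and 13.3 and 22.1 in unloaded pools. It had the largest negative value among the channels, with both unloaded pools lower, and did not pass (log2 fold change -0.74, SE 0.24, adjusted p = 0.132). Clcn4 gave 69.2 and 63.6 against 58.8 and 57.4 (-0.17, SE 0.14), and Clcn3 gave 202 and 205.9 against 225.7 and 217.2 (0.11, SE 0.11). The groups of all 4 tested chloride genes did not overlap, 2 higher and 2 lower, as was the case for 50.8% of all tested probe sets. Their median log2 fold change was -0.03.

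Potassium channels made up most of the members, 82 probe sets for 54 genes, of which 24 probe sets for 19 genes were tested. Kcnj11 encodes the pore of the ATP-sensitive potassium channel, which opens when a fibre's energy supply falls. It had a pair of probe sets made from 1 sequence record, so they are not independent readings. The brighter gave 894.1 and 842.1 in controls and 654.1 and 768.6 in unloaded pools, and the dimmer 848.1 and 749.3 in controls and 533.8 and 707.9 in unloaded pools. On both, both unloaded pools were below both controls, and neither passed (-0.29, SE 0.11, adjusted p = 0.184, and -0.37, SE 0.14, adjusted p = 0.193).

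The partner of that pore in muscle is the sulfonylurea receptor Abcc9, no member by its symbol. Its brightest probe set gave 0.09 (SE 0.13) and the others -0.21 (SE 0.11) and -0.26 (SE 0.13), none of which passed. Kcnj8, the related pore gene known from vascular muscle, gave 86.1 and 90.7 in controls and 82.0 and 87.1 in unloaded pools, an overlap (-0.06, SE 0.13).

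Inward rectifiers of another type hold the resting potential near that of potassium. Kcnj12 gave 33.0 and 29.1 in controls and 52.4 and 44.5 in unloaded pools. Both unloaded pools were higher, 1.43-fold as a ratio of signal + 9, and the probe set did not pass (log2 fold change 0.52, SE 0.18, 95% interval 0.11 to 0.92, adjusted p = 0.151). Kcnj2, the best known of this type in muscle, was dim, with signals of 11.7 and 10.5 in controls and 1.5 and 0.5 in unloaded pools. It was not tested with the filter in place. Without the filter it was the channel probe set that passed, 1 of 134 or 0.746%, against 1.03% of all 8740 probe sets. Its log2 fold change was then -1.01 (SE 0.13, adjusted p = 0.0402), and -2.64 or -0.36 with an offset of 1 or 35 in place of 9 (adjusted p = 0.0480 and 0.0479), so the size is set by the offset. Whether signals this low measure Kcnj2 was not tested.

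The large conductance channel opens with both voltage and calcium. Kcnma1, its pore gene, was read by 2 tested and 2 dim probe sets. On the brighter tested one the signals were 136.4 and 114.7 in controls and 70.4 and 84.3 in unloaded pools. Both unloaded pools were below both controls (log2 fold change -0.64, SE 0.15, 95% interval -0.99 to -0.29, adjusted p = 0.0531). On the other the signals were 82.2 and 63.8 in controls and 73.0 and 49.7 in unloaded pools, which overlapped (-0.23, SE 0.20, adjusted p = 0.587).

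The brighter Kcnma1 probe set passed when fewer probe sets were tested, with the filter at the 50th percentile (adjusted p = 0.0373) or the 60th (0.0282), where 7.97% and 9.99% of all probe sets passed and 2 channel probe sets did so in each case, the other being Cacna2d1. At an adjusted p under 0.10 the same 2 channel probe sets were called, beside 8.71% of all tested probe sets. Its change lay between -0.76 and -0.51 over all alternatives.

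Kcnmb1, the accessory subunit of that channel in smooth muscle, gave 130.1 and 158.9 in controls and 97.4 and 118.3 in unloaded pools. Again both unloaded pools were lower, and the change did not pass (-0.39, SE 0.15, adjusted p = 0.194). A second probe set of Kcnmb1 was dim (mean 14.65) and gave 0.31 without the filter, with overlapping groups. Of 6 measured smooth muscle markers none passed, and their summed signal was 5413 to 5537 in controls and 5641 to 5961 in unloaded pools. That sum is dominated by Des, which muscle fibres also express. Acta2 gave 699.5 and 833.2 in controls and 889 and 934.1 in unloaded pools. Myh11 gave 91.4 and 119.3 against 128.2 and 193.8, and both genes were higher in the unloaded pools without passing. The part of smooth muscle cells in the Kcnma1 and Kcnmb1 values was not tested.

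Tandem-pore channels carry background potassium current. Kcnk5 gave 50 and 50.8 in controls and 28.5 and 37.3 in unloaded pools. The control pools nearly coincided and both unloaded pools were lower, without passing (-0.51, SE 0.18, 95% interval -0.93 to -0.10, adjusted p = 0.162). Kcnk1 gave 25.5 and 43.7 in controls and 10.4 and 29.0 in unloaded pools, the noisiest of the tested channels (-0.65, SE 0.35, adjusted p = 0.331).

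The ether-a-go-go family, voltage-gated channels best known from heart and brain, had 6 tested probe sets. Kcnh8 gave 42.5 and 30.1 in controls and 29.1 and 14.3 in unloaded pools (-0.59, SE 0.28), and Kcnh4 gave 54.3 and 40.4 against 30.4 and 39.2 (-0.36, SE 0.20). Their groups did not overlap and neither passed (adjusted p = 0.273 and 0.354). A further Kcnh8 probe set was dim (mean 5.3) and gave 0.17 without the filter, with overlapping groups. The brighter probe set of Kcnh3 gave 186.6 and 177.3 in controls and 173.4 and 214.1 in unloaded pools (0.08, SE 0.13), and the dimmer 81.6 and 47.4 against 43.6 and 53.9 (-0.31, SE 0.24). Those differ in sign, and both overlap. Kcnh2, which repolarises the heart, gave 166.1 and 123.1 in controls and 125.1 and 134.4 in unloaded pools (-0.13, SE 0.16), and Kcnh7 gave 0.23 (SE 0.23).

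Of the remaining potassium channel genes, Kcnc4 encodes a fast-gating channel of skeletal muscle. It gave 78.1 and 81.8 in controls and 86.2 and 59.0 in unloaded pools, so the unloaded pools lay on either side of the controls (-0.14, SE 0.18, adjusted p = 0.724). Kcng1, a subunit that forms no channel by itself, gave 31.1 and 29.9 against 25.7 and 26.9, without overlap (-0.16, SE 0.18). Kcnab2, an accessory subunit of voltage-gated channels, gave -0.01 (SE 0.18) and -0.02 (SE 0.20) on its pair of probe sets. Kcnn1, a calcium-activated channel gene, gave -0.04 (SE 0.16), Kcnq3, a subunit of the neuronal M-current, 0.03 (SE 0.16), and Kcnj10, an inward rectifier of glia, -0.23 (SE 0.24). The renal channel gene Kcnj1 gave -0.15 (SE 0.18) and -0.09 (SE 0.24). All of these except Kcng1 had overlapping groups.

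No potassium channel probe set passed, and most values were below 0. Of the 24 tested probe sets, 20 had a log2 fold change below 0, with a median of -0.16, where 49.7% of all tested probe sets were below 0. Both unloaded pools lay below both control pools for 8 of them and above for 1, beside 25.3% below and 25.5% above among all tested probe sets. The 24 stand for 19 genes, and Kcnj11, Kcnma1, Kcnab2 and Kcnj1 each count below 0 with a pair of probe sets. Both Kcnj11 probe sets, made from 1 sequence record, are among the 8. The count below 0 depended on control pool 1: without it 13 of 24 were below 0 and the median was -0.05, while without control pool 2 it was 21 of 24 and -0.32. Over all 82 potassium channel probe sets, the dim ones included, 47 were below 0 and the median was -0.04.

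**Figure D3:**
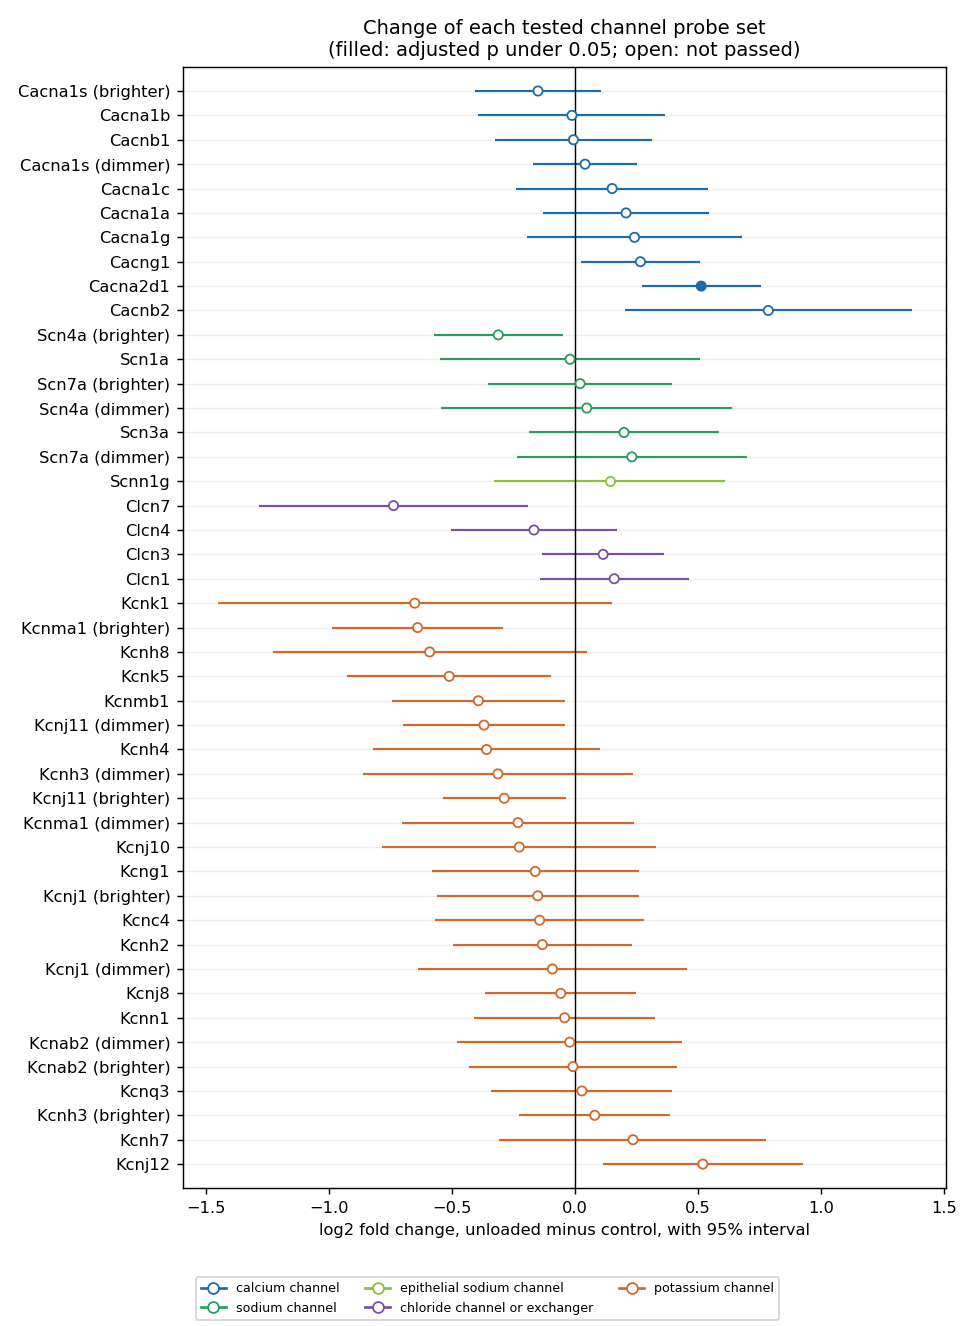
Log2 fold change of the 45 tested channel probe sets (unloaded minus control) with 95% intervals from limma, grouped by family and coloured by it; where a gene has 2 tested probe sets they are marked brighter and dimmer. The filled point is Cacna2d1, the only one at an adjusted p under 0.05, and 20 of 24 potassium channel points lie left of 0.

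Genes with more than 1 probe set show how far a single reading can be taken. Of 34 channel genes with 2 or more probe sets, 8 had 2 tested ones, and for 3 of those (Cacna1s, Kcnh3 and Scn4a) the values had opposite signs. Cacna2d1 had 1 probe set, so its rise has no second reading on the array. Brightness set the precision: the median SE was 0.11 for the 7 tested channel probe sets with a mean signal over 200, 0.15 for the 17 between 50 and 200, and 0.20 for the 21 under 50. At these SE values a change had to reach 1.38-fold, 1.58-fold or 1.82-fold, respectively, to pass. The tested channels had a median mean signal of 56.6, against 94.1 for all tested probe sets.

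**Figure D4:**
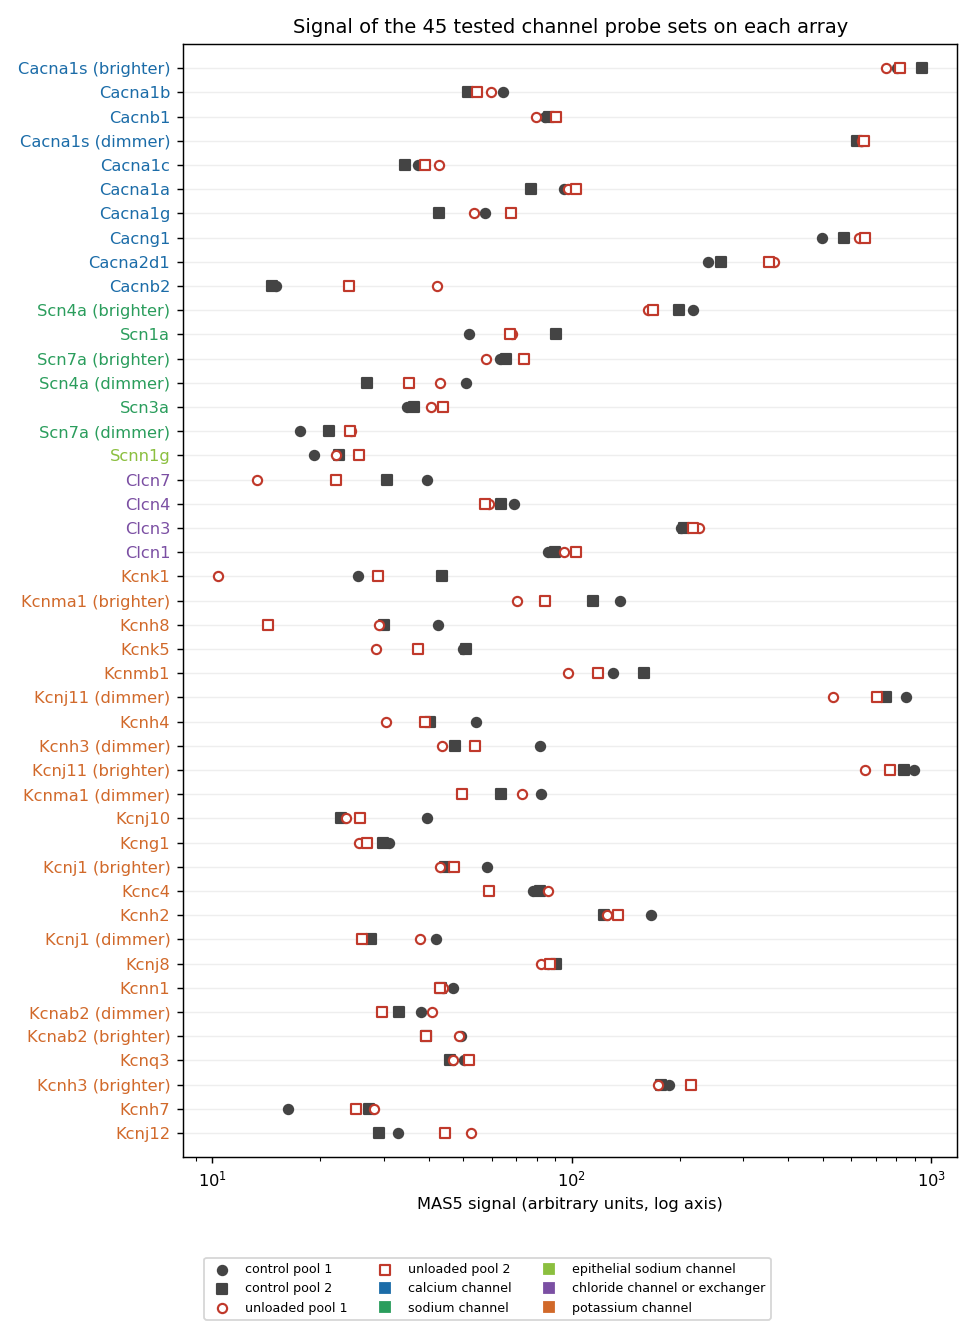
MAS5 signal (log axis) of each tested channel probe set on the 4 arrays, with filled dark marks for control pools and open red marks for unloaded pools; label colours give the channel family. Marks of the dimmer probe sets, such as Kcnk1 (10.4 to 43.7), are spread more widely than those of bright ones such as Cacna1s (dimmer), at 620 to 648.4.

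Dim members made up 89 of the 134, and 33.6% of channel probe sets passed the filter against 60.6% of other probe sets. Their mean signals ran from 1.25 to 20.4 with a median of 6.85, and 41 of them were under the offset of 9 on every array. Nearest the filter were Kcnh2 (18.8), Cacnb3 (19.1) and Kcnh5 (20.4) below it and Scn7a (21.8), Scnn1g (22.4) and Cacnb2 (24.0) above it, each by 1 of its probe sets. Muscle channel genes with no tested probe set were, besides Kcnj2, Kcna5 (mean 9.80), Kcnc1 (7.03), Kcnn3 (17.3) and Kcnq1 (2.13). Kcnn3, which denervated muscle expresses, gave 22.5 and 10.5 in controls and 20.1 and 16.1 in unloaded pools, an overlap. Kcnd2, an A-type channel gene, gave 22.5 and 23.6 in controls and 8.30 and 9.50 in unloaded pools on one probe set and 1.80 to 2.40 on another. The former did not pass without the filter (-0.84, SE 0.18, adjusted p = 0.115). Kcnd2 is not one of the muscle channel genes listed and is given as an example. Other dim probe sets moved either way without the filter, such as Scn2a (0.45) and the pair for Scn9a (0.65 and -0.52), and did not pass.

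The other genes of excitability, ion pumping and calcium handling were read from a list of 97, of which 54 had a tested probe set. By the brightest probe set of each gene, 3 rose, 2 fell and 49 did not pass, or 9.26%, against 4.7% of all 3152 genes taken the same way. Their median log2 fold change was -0.02. The list and its members were chosen with earlier results of these data known. Those that rose were Stk39, a kinase that regulates ion cotransporters (2.44, SE 0.21; its dimmer probe sets gave 0.37 and -0.61 and did not pass), the fast calcium pump Atp2a1 (0.73, SE 0.10) and the sodium pump subunit Atp1b1 (0.61, SE 0.09).

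Those that fell were Rrad, a small GTPase that binds calcium channel beta subunits and restrains L-type current (-2.14, SE 0.14), and the acetylcholine receptor subunit Chrnd (-0.89, SE 0.14). Rrad gave 338 and 271.4 in controls and 65.0 and 58.5 in unloaded pools, so both groups were far apart. The next genes by p were Dlg4 (0.65, SE 0.16), Slc12a4 (-0.58, SE 0.15), Chrnb1 (0.43, SE 0.13) and Ppp3cb (0.51, SE 0.16), with adjusted p of 0.0621, 0.0673, 0.112 and 0.127. Of the dimmer probe sets of listed genes, 1 each of Slc12a4, a potassium-chloride cotransporter (-0.53, SE 0.11), Atp1b1 (0.75, SE 0.10) and the sodium pump subunit Atp1b2 (0.97, SE 0.19) passed. The other dimmer Atp1b1 probe set gave 0.50 (SE 0.12, adjusted p = 0.0514). For Atp1b2 the other probe sets gave -0.04 and 0.0035 (adjusted p = 0.927 and 0.993), the latter being from the same sequence record as the one that passed. The Atp1b2 probe set that passed gave 14.7 and 14.2 in controls and 36.9 and 37.1 in unloaded pools. Its controls lay under the filter, so it was tested only through its unloaded pools.

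Cell type markers give the setting of these values. All 6 slow-fibre markers on the array were above the filter, with a summed signal of 35924 to 40313 over the arrays and none called. Neuron and axon markers summed to 234 to 243 in controls and 205 to 214 in unloaded pools, with 4 of 8 above the filter and none called. Nefl (14.0 and 14.2 in controls, 5.90 and 6.70 in unloaded pools), Nefh, Nefm and Syt1 were dim. Schwann cell markers summed to 748 to 800 in controls and 711 to 770 in unloaded pools, mostly from Pmp22, with 4 of 7 above the filter and Sox10 at 2.20 to 4.00. Their part in the signals of the neuronal and glial channel genes was not tested. Of the markers of denervated or regenerating muscle, 7 of 8 were above the filter, 2 rose (Myog and Gadd45a) and 1 fell (Myh3), beside 4.7% of all 3152 genes called in either direction. Not called were Chrna1 (-0.21, SE 0.16), Chrng (0.00, SE 0.13), Runx1 (0.05, SE 0.14) and Ncam1 (-0.50, SE 0.15). Ncam1 gave 69.8 and 82.1 in controls and 48.5 and 53.0 in unloaded pools, without overlap. Myh8 was dim. Over the tested channel probe sets, log2 signals correlated at 0.976 between pools of a group and at 0.949 to 0.979 between pools of different groups, as a description over 45 probe sets that share their arrays.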

How the data were processed

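The authors deposited 1 table of signal intensity per probe set for 4 arrays, made with MAS5 per the submitters' processing notes (the sources used here name no version). Values are linear, with array medians of 33.9 to 35.6. Detection calls and scan batches were not used here. Of 8799 probe sets, 59 control probe sets were left out, and symbols came from the platform annotation, updated by gene ID to RefSeq for GRCr8 (no channel symbol changed). Signals were taken as log2(signal + 9), 9 being the 25th percentile, which understates changes of dim probe sets, and 5257 probe sets with a mean of at least 21.0 were tested with limma 3.58.1 in R 4.3.3 (lmFit, eBayes with a trend, Benjamini-Hochberg adjustment over all of them; 2 residual and 5.80 prior degrees of freedom). Fold changes are 2 to the power of the log2 difference, so they are ratios of signal + 9 and not of signal. Described one by one were the probe sets that passed, those with groups apart by 1.3-fold, muscle channel genes, and genes with several tested probe sets; the others follow for completeness. The brightest probe set stands for a partner or marker gene. Sequences are from RefSeq. The fit was tested on simulated data. Members and lists were chosen with earlier results of these data known. Alternatives were other offsets and filters, quantile or median scaling, no trend, the pool number as a block and leaving out each array. Arrays are few, which limits precision. Figures were drawn with matplotlib 3.10.9.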

Additional observations from a re-analysis of the deposited data

How the results depend on the processing

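The count of called channel probe sets was 1 with an offset of 1 or at the 50th percentile, with quantile or median scaling, and without a filter, where the call was Kcnj2 in place of Cacna2d1. It was 2 with the filter at the 50th or 60th percentile and at an adjusted p under 0.10. It was 0 without a mean-variance trend, with the pool number as a replicate block, by the rule of 1.5-fold in all pairs of arrays, and without any 1 array (0 to 0). Over all probe sets, the 276 calls became 90 without a filter, 113 without a trend, 165 with the replicate block, 458 at an adjusted p under 0.10, and 67 to 84 without 1 array. Partner genes called, 5, became 3 without a filter and 3 without a trend, and 1 to 3 without 1 array. With the filter at the 50th or 60th percentile, 7 partner genes were called. The median change of tested channels, -0.02, ranged from -0.10 to 0.028 without 1 array, and stayed between -0.04 and -0.02 in the other alternatives.

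Without 1 array, the pool left alone in its group was assumed to vary like the other group. The labels give pool numbers no shared source. Deviations of same-numbered pools correlated at -0.04, so the paired fit is given as an alternative without a reading of its own.

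Signs turned for some uncalled probe sets, of which Kcnh3 (dimmer), at -0.31, had the largest change with all arrays. With quantile normalization Cacnb1 gave 0.0055 and Kcnab2 (brighter) 0.014. Without 1 array the ranges were -0.090 to 0.077 for Cacnb1, -0.20 to 0.16 and -0.14 to 0.13 for Kcnab2 (dimmer and brighter), -0.39 to 0.10 for Kcnc4, -0.66 to 0.028 and -0.066 to 0.22 for Kcnh3 (dimmer and brighter), -0.33 to 0.15 and -0.32 to 0.014 for Kcnj1 (dimmer and brighter), -0.47 to 0.0091 for Kcnma1 (dimmer), -0.32 to 0.41 for Scn4a (dimmer) and -0.13 to 0.17 for Scn7a (brighter). Dim probe sets limit what can be read: in the tested channels under a signal of 50, changes below 1.82-fold would usually not pass.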
